A study of Mus musculus with 11 samples.

Results

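The mitochondrial ribosomal protein genes described here are all genes of the series whose symbol starts with Mrpl or Mrps followed by a number. They are 78 of the 21957 genes in the coding-sequence count table, and all 78 had counts in every RNA library. The samples are primed mouse OT1 cells, a transgenic CD8 T cell type whose receptor recognises a peptide of ovalbumin, and the series calls them CD8 memory T cells. The unstimulated group was kept at rest and the stimulated group received beads against CD3 and CD28 for 2 h, and both groups then received cycloheximide, which stalls ribosomes. The labels give the unstimulated group as T0, and the protocol can be read as rest for the same 2 h or as a start point. Under the latter reading, 2 h in culture and stimulation cannot be told apart. There are 3 RNA libraries of each group. For ribosome footprints there are 3 unstimulated libraries (replicates 1, 2 and 3) and 2 stimulated ones (replicates 2 and 3). The labels do not say whether replicates came from separate mice or cultures, so each p-value measures the spread between libraries only.

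Mitochondria translate a small set of respiratory chain proteins on their own ribosome, whose RNA is made inside the organelle and whose proteins are all encoded in the nucleus, translated in the cytosol and imported. Part of these proteins descend from bacterial ribosomal proteins and part were acquired by mitochondria. CD8 T cells enlarge their mitochondrial capacity as they leave rest. By structure, 51 of the members belong to the large subunit and 26 to the small subunit. Mrps30 and Mrps18a, although named for the small subunit, sit in the large one. Mrps36 is left unassigned because its protein is known as a part of the 2-oxoglutarate dehydrogenase complex. By this classification 46 members have a bacterial counterpart, and 31 are classed as particular to mitochondria. The 31 include Mrps18a (mL66) and Mrps18b (mS40), although both carry the symbol of S18 proteins. Mrps18c (bS18m) is counted with the 46.

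RNA libraries held 21658263 to 39346699 counts and footprint libraries 11136 to 23641. The lowest count of a member in an RNA library was 14, while all 5 footprint libraries together held 438 member footprints. Of the CD8 T cell markers, 7 of 8 were matched and summed to 2291 to 2592 CPM (counts scaled to library size, here by TMM, a trimmed mean of ratios between libraries) in unstimulated and 1652 to 2643 CPM in stimulated RNA. The sums for B cell, myeloid and dendritic cell, NK cell, CD4 T cell and erythroid markers reached at most 22.7 CPM in any RNA library. The sum of the 2 CD4 T cell markers was 9.15 to 10.0 CPM in unstimulated and 16.6 to 22.7 CPM in stimulated libraries, and that of the 2 NK cell markers 0.733 to 1.29 and 1.67 to 2.29 CPM, both without overlap. Most of the CD4 T cell sum was Cd40lg, at 9.03, 6.74 and 9.24 and then 13.9, 18.0 and 20.7 CPM (adjusted p = 0.00474, edgeR). Cd4 itself was at 0.969, 2.41 and 0.692 and then 2.65, 2.85 and 1.97 CPM. Its groups overlapped and it did not pass (adjusted p = 0.336, edgeR). Each of the 7 CD8 T cell markers had a negative log2 change with TMM, with a median of -0.41, and none passed edgeR's test (3 were lower at an unadjusted p under 0.05, and DESeq2 called 4 lower). The part of these marker differences in the results below was not tested. Gm10800, Gm10801, Gm20594 and Lars2 took 4.09, 14.9 and 5.14% of unstimulated and 25.0, 22.5 and 12.8% of stimulated RNA counts. Olfactory, vomeronasal and defensin genes, 1541 in number, took 0.03002, 0.189 and 0.0407% and then 0.276, 0.203 and 0.0686%. Both shares were higher on average after stimulation, with overlap between the groups, and unstimulated RNA replicate 2 stood apart from the other unstimulated libraries. The part of the olfactory, vomeronasal and defensin counts in the results below was not tested. In bulk samples, fewer cells of a type and less RNA per cell cannot be told apart.

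Within 2 h of stimulation, 4 of the 78 mitochondrial ribosomal protein mRNAs rose and none passed the test downward. Mrps6 rose most, 2.13-fold, followed by Mrpl50 (1.76-fold), Mrpl38 (1.66-fold) and Mrps2 (1.59-fold). These are 2 proteins of the small subunit with bacterial counterparts (Mrps6 and Mrps2) and 2 of the large subunit that are particular to mitochondria. The test was edgeR's quasi-likelihood F test over 18886 genes with Benjamini-Hochberg adjustment, and a gene passed at an adjusted p under 0.05. Of all genes tested, 3.58% rose and 4.68% fell, so the members' 4 rises are near the background share. At an unadjusted p under 0.05, 11 members were higher and 1 was lower. Here and wherever else an unadjusted p is used, the share of all genes is not given. Such counts therefore have no background to be read against. DESeq2 called 1 member higher (Mrps6) and 2 lower (Mrpl33 and Mrpl49) at an adjusted p under 0.05, against 1.69 and 11.5% of all genes.

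**Figure D1:**
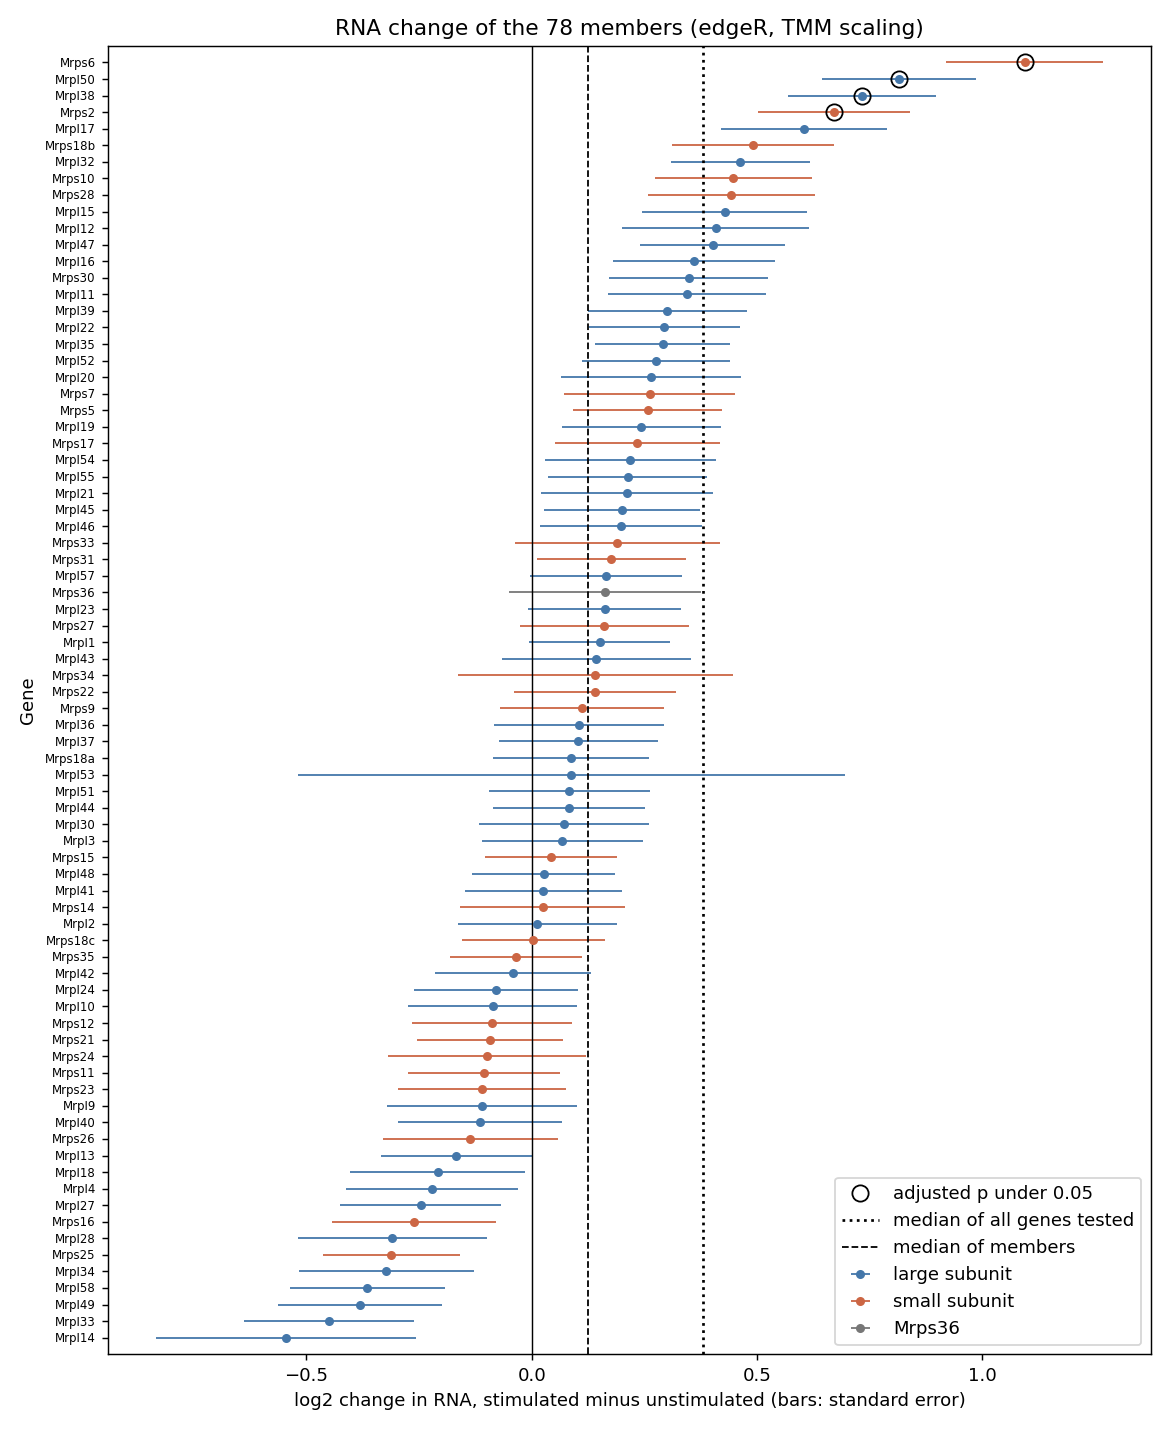
Log2 change in RNA (stimulated minus unstimulated, x axis) of each of the 78 members (y axis), with its standard error, coloured by subunit; circled points passed at an adjusted p under 0.05. The changes run from -0.55 to 1.09, with a median of 0.13 (dashed line) against 0.38 for all genes tested (dotted line).

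Mrps6 (ENSMUSG00000039680, chromosome 16, 92058336 to 92112227 on GRCm38), which encodes the small subunit protein bS6m, was at 12.3, 10.9 and 11.6 CPM in the unstimulated libraries. It was at 20.03, 22.8 and 31.8 CPM in the stimulated ones. The stimulated libraries all lay above the unstimulated ones, and the log2 change was 1.09 ± 0.17 (SE, adjusted p = 0.00352, edgeR). The annotated span of Mrps6 overlaps Slc5a3, a myo-inositol transporter gene, which went from 49.95 ± 5.80 to 98.9 ± 22.7 CPM (SD, n = 3; log2 change 0.98 ± 0.20, adjusted p = 0.0109, edgeR). The Slc5a3 call was lost with DESeq2 (adjusted p = 0.0721) and RLE scaling (0.0840), and without unstimulated RNA replicate 3 (0.101) or stimulated RNA replicate 1 (0.0718) or 2 (0.159). The handling of reads shared by overlapping genes is not given in the sources used here, and its part in the Mrps6 count was not tested. In all, 20 of the 78 members overlap another protein-coding gene, among them Mrps2, which overlaps 1700007K13Rik. The part of shared reads was not tested for any of them.

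Mrpl50 (ENSMUSG00000044018, chromosome 4, 49512597 to 49521083), a large subunit protein that is particular to mitochondria, was at 26.0, 21.9 and 25.1 CPM before and 36.8, 39.0 and 52.7 CPM after stimulation. Its log2 change was 0.81 ± 0.17 (adjusted p = 0.0132, edgeR). Mrpl38 (ENSMUSG00000020775, chromosome 11, 116131817 to 116138868), a protein of the central protuberance of the large subunit, was at 19.997, 18.5 and 20.4 CPM and then at 27.0, 30.9 and 40.1 CPM. The groups did not overlap for either gene. Mrpl38 changed by 0.73 ± 0.16 on the log2 scale (adjusted p = 0.0182, edgeR).

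Mrps2 (ENSMUSG00000035772, chromosome 2, 28465951 to 28471177), a small subunit protein with a bacterial counterpart, was at 31.9, 30.8 and 31.9 CPM in unstimulated RNA and at 42.9, 46.4 and 61.7 CPM in stimulated RNA. Its log2 change was 0.67 ± 0.17 (adjusted p = 0.0309, edgeR). In each of these 4 genes stimulated replicate 3 was the highest library and stimulated replicate 1 the lowest of the stimulated ones. The Mrps6 call held in all 15 settings of scaling, filter, tool, block and left-out library, with log2 changes from 0.78 to 1.18. Mrpl50 was called in 8 of the 15, and Mrpl38 and Mrps2 in 7 each. All of these 3 calls were lost with DESeq2, RLE scaling, totals without Gm10800, Gm10801, Gm20594 and Lars2, and no filter, and without unstimulated RNA replicate 3 or stimulated RNA replicate 1 or 2. Those of Mrpl38 and Mrps2 were also lost without unstimulated RNA replicate 1. The adjusted p then ran from 0.0516 to 0.195 for Mrpl50, from 0.0690 to 0.266 for Mrpl38 and from 0.110 to 0.343 for Mrps2 (edgeR and DESeq2). The number called depended on single libraries and on the scaling. Without unstimulated RNA replicate 2, 6 members passed upward and 36 downward (35.6 and 32.1% of all genes), and without stimulated RNA replicate 3, 8 and 17 did (5.05 and 21.9%). With library totals in place of TMM, 7 passed upward and 14 downward (5.32 and 22.3%). The order of these 4 genes among the members was the same in all 15 settings.

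Next in order came Mrpl17, a large subunit protein near the exit of the peptide tunnel, with 28.7, 27.8 and 29.0 CPM before and 33.7, 40.8 and 55.6 CPM after stimulation. The groups did not overlap, but the log2 change of 0.60 ± 0.18 did not pass (adjusted p = 0.0700, edgeR). Mrpl17 passed upward in 6 of the 15 settings, among them the replicate block (adjusted p = 0.0350, edgeR), library totals (0.0146), and leaving out unstimulated RNA replicate 2 (0.0106) or stimulated RNA replicate 3 (0.0137). Mrps18b, one of the S18 proteins of the small subunit, was at 26.6, 26.8 and 28.7 CPM and then at 30.0, 36.9 and 48.6 CPM (0.49 ± 0.18, adjusted p = 0.134, edgeR). Here too all stimulated libraries were above all unstimulated ones.

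The most negative changes among members of at least 10 CPM were those of Mrpl33, Mrpl49, Mrpl58, Mrpl34, Mrps25 and Mrpl28, none of which passed in edgeR's test with TMM. DESeq2 called Mrpl33 (adjusted p = 0.0233) and Mrpl49 (0.0435) lower. These 2 passed in 6 of the 15 settings and the other 4 in 5 of the 15 each. Mrpl33 (chromosome 5, 31613951 to 31622644), the counterpart of bacterial L33, was at 91.5, 75.5 and 87.4 CPM in unstimulated and 51.6, 57.9 and 76.8 CPM in stimulated RNA. The highest stimulated library lay above the lowest unstimulated one, and the log2 change was -0.45 ± 0.19 (adjusted p = 0.201, edgeR). Mrpl49 was at 40.7, 39.9 and 41.5 CPM and then at 25.0, 28.5 and 40.2 CPM (-0.38 ± 0.18, adjusted p = 0.263, edgeR). Only stimulated replicate 3 reached the unstimulated range. Mrpl49 overlaps Syvn1, whose log2 change was -0.44 ± 0.15 (adjusted p = 0.110, edgeR), and the part of shared reads was not tested.

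Mrpl58, also known as ICT1, is a peptidyl-tRNA hydrolase that rescues stalled mitochondrial ribosomes. It was at 36.9, 32.7 and 37.3 CPM before and 24.7, 23.7 and 34.7 CPM after stimulation (-0.36 ± 0.17, adjusted p = 0.256, edgeR). Mrpl34 (-0.32 ± 0.19), Mrps25 (-0.31 ± 0.15) and Mrpl28 (-0.31 ± 0.21) completed the group of 6. Mrps25 overlaps Nr2c2, a nuclear receptor gene that fell by 0.68 on the log2 scale (adjusted p = 0.0410, edgeR), and the part of shared reads was not tested. The Nr2c2 call was lost without any 1 of unstimulated RNA replicates 1 and 3 and stimulated RNA replicates 1 and 2 (adjusted p 0.175 to 0.253, edgeR). Outside the rule for named genes and chosen after its values were seen, Mrpl14 had the most negative change of all members (-0.55 ± 0.29). It lay under 10 CPM and was the 1 member whose stimulated libraries (3.35, 4.59 and 6.73 CPM) were all below the unstimulated ones (6.97, 6.77 and 7.76 CPM).

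Across the set, the libraries did not overlap in the higher direction for 15 members and in the lower direction for 1. Over all genes tested, 15.4% did not overlap in the higher and 13.6% in the lower direction. The direction of the set as a whole depended on the scaling. The median log2 change of the members was 0.13 with TMM but -0.02 without Gm10800, Gm10801, Gm20594 and Lars2 in the totals, -0.07 with library totals alone, -0.11 with RLE scaling and -0.20 with DESeq2. The median over all genes moved as well, from 0.38 with TMM to 0.19 with RLE. With TMM, 66 of the 78 members lay below the median of all genes. Among the 8494 genes of at least 10 CPM that median was 0.004, the median of the 73 members tested was 0.20, and 43 members passed upward and 7 downward. Of all those genes 36.9% passed upward and 36.4% downward.

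**Figure D2:**
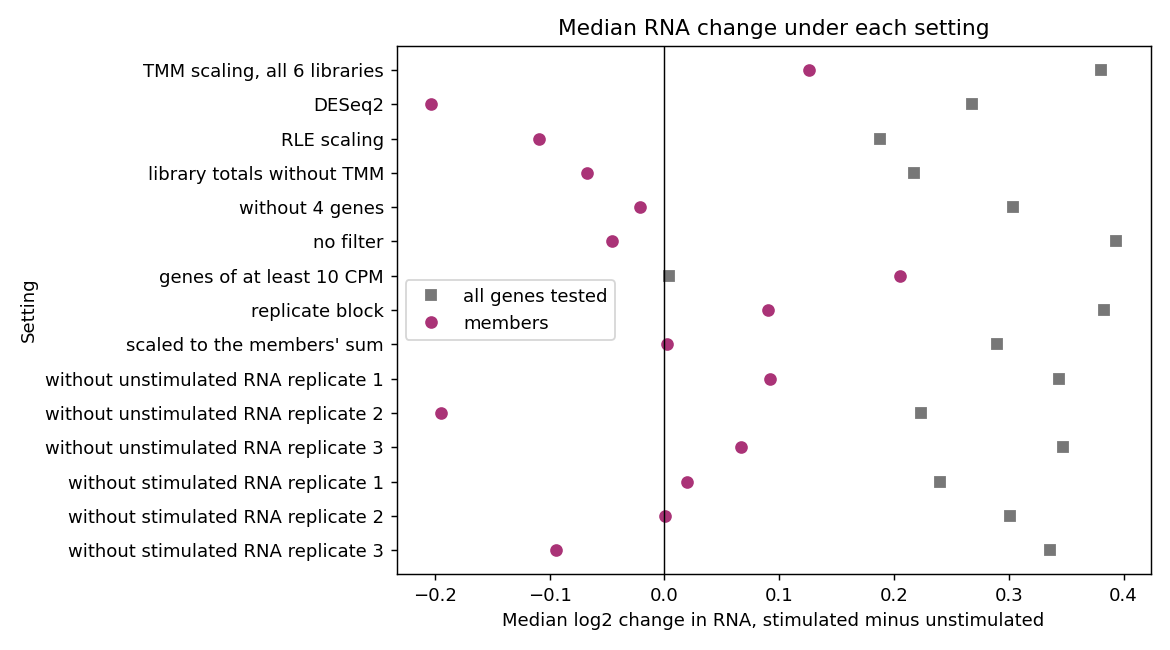
Median log2 change in RNA (x axis) of the members (circles) and of all genes tested (squares) under each of 15 settings (y axis). The members lie between -0.20 and 0.20, and below all genes in every setting except when only genes of at least 10 CPM were kept.

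Changes of members relative to each other do not depend on a scaling factor. Each member's count was therefore divided by the sum over all members in the same library. On this measure 25 members were higher in all 3 stimulated than in all 3 unstimulated libraries, 25 were lower and 28 overlapped. Over all genes counted in the same way, 12.9% did not overlap upward and 29.2% downward. Fitting edgeR with the member sum as the library size, an alternative chosen after the data were seen, 20 members passed upward and 22 downward (9.13 and 24.6% of all genes). Both measures hold the members' sum constant, so rises of some members come with falls of others by construction. Division by this sum also takes out variation that the members share, but not that of other genes. The shares over all genes are therefore not a like background for these counts.

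The share of Mrps6 in the member RNA was 0.482, 0.469 and 0.456% in unstimulated and 0.906, 0.930 and 0.945% in stimulated libraries, a 1.98-fold difference. Mrpl50 went from 1.02, 0.939 and 0.981% to 1.67, 1.59 and 1.56%. In the other direction, the share of Mrpl33 was 3.59, 3.24 and 3.42% and then 2.33, 2.36 and 2.28%, 1.47-fold lower. Mrpl58 went from 1.45, 1.40 and 1.46% to 1.12, 0.964 and 1.03%. Among stimulated libraries these shares varied less than the CPM did. The 10 genes in the plot of shares were chosen by their RNA change in these same libraries, so their separation is a description that follows in part from that choice.

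**Figure D3:**
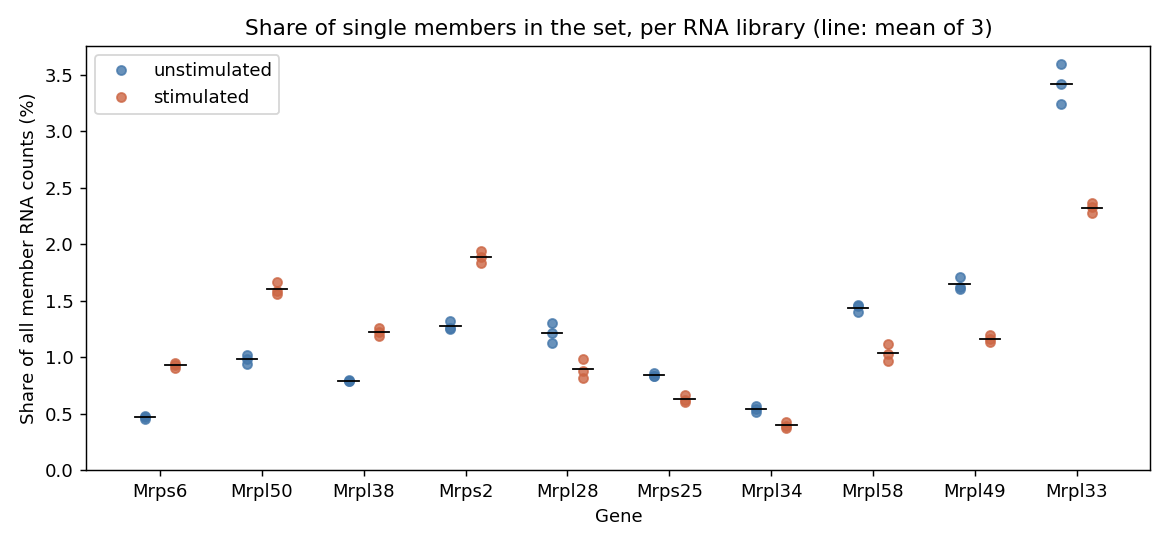
Share of the summed member RNA counts (%, y axis) of the 4 members that passed and the 6 with the most negative change (x axis), with 1 point per library and a line at each group's mean of 3. The 10 genes were chosen by their RNA change in the same libraries. Their stimulated and unstimulated points are apart, upward for Mrps6, Mrpl50, Mrpl38 and Mrps2 and downward for the other 6.

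By subunit, 2 of 51 large subunit members and 2 of 26 small subunit members passed upward and none downward, where 3.58% of all genes passed upward and 4.68% downward. Their median log2 changes were 0.11 and 0.13, against 0.38 for all genes. With RLE scaling both medians turned negative (-0.12 and -0.11). Among genes of at least 10 CPM they were 0.22 and 0.18, above the median of 0.004 for all genes of that setting. There 31 of 49 large and 12 of 24 small subunit members passed upward and 5 and 2 downward (36.9 and 36.4% of those genes). Members with a bacterial counterpart had a median of 0.11 (2 of 46 passed) and those particular to mitochondria one of 0.14 (2 of 31 passed), which turned to -0.12 and -0.10 with RLE. Among genes of at least 10 CPM these medians were 0.20 and 0.21. The ratio of large to small subunit counts, which needs no scaling, was 2.41, 2.40 and 2.40 in unstimulated and 2.35, 2.29 and 2.34 in stimulated libraries. The groups did not overlap, and the difference was small.

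Members with known special roles did not pass in edgeR's test over 18886 genes with TMM. Mrpl12, the stalk protein that recruits translation factors, was at 26.5, 26.4 and 29.0 CPM before and 25.1, 35.5 and 48.1 CPM after stimulation (0.41 ± 0.21, adjusted p = 0.286, edgeR). The stimulated libraries spanned the unstimulated range. Mrpl10, which anchors that stalk, changed by -0.09 ± 0.19, and its value was 0.00086 among genes of at least 10 CPM. Mrps12, a protein of the decoding centre, changed by -0.09 ± 0.18. Over the 15 settings, Mrpl12 was called higher in 2, and Mrpl10 and Mrps12 were called lower in 3 each.

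Mrps30 was at 56.9, 53.4 and 59.3 CPM and then at 62.7, 65.0 and 88.3 CPM, with groups apart but no call (0.35 ± 0.18, adjusted p = 0.286, edgeR). Mrpl44, a large subunit protein with a fold like that of RNase III, changed by 0.08 ± 0.17, and Mrps18a by 0.09 ± 0.17. Mrps36 was at 7.49, 6.87 and 6.61 CPM and then at 7.85, 7.21 and 8.44 CPM (0.16 ± 0.21). Pseudogenes named for Mrps36, Mrpl23 and Mrpl48 are annotated, so the counts of these 3 are uncertain. The values of Mrpl44, Mrps18a and Mrps36 were negative under RLE scaling, library totals and DESeq2. Mrps30 was called higher in 2 of 15 settings, and Mrps18a in 1, among genes of at least 10 CPM. Mrpl44 was called higher in that setting and lower without unstimulated RNA replicate 2, and Mrps36 in none.

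The summed RNA counts of the 78 members made up 0.274, 0.241 and 0.274% of the unstimulated libraries (mean 0.263 ± 0.0189, SD, n = 3). They made up 0.231, 0.238 and 0.280% of the stimulated ones (0.250 ± 0.0263). The groups overlapped. With Gm10800, Gm10801, Gm20594 and Lars2 left out of the totals, the shares were 0.285, 0.283 and 0.288% and then 0.309, 0.307 and 0.321%, without overlap and higher after stimulation. That order is one of shares: on TMM-scaled counts with the same 4 genes removed, the log2 ratio of the group means was -0.02. In TMM-scaled counts of all genes the log2 ratio of the group means was 0.11, with RLE scaling it was -0.12, and it was -0.20 with TMM without library unstimulated 2.

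**Figure D4:**
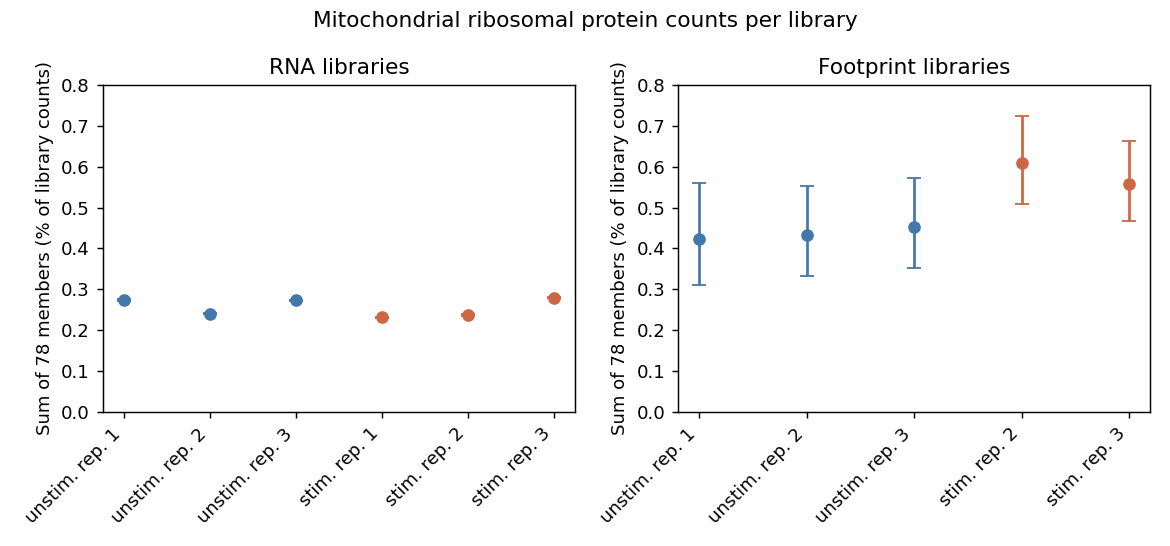
Summed counts of the 78 members as a percent of library counts (y axis) in each RNA library (left) and footprint library (right), blue for unstimulated and orange for stimulated, with 95% Poisson intervals that cover counting error only. The RNA shares overlap between groups, while both stimulated footprint libraries (0.609 and 0.558%) lie above all 3 unstimulated ones (0.422 to 0.453%).

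In footprints, the mRNA fragments covered by translating ribosomes, the 78 members made up a larger share after stimulation. Their sums were 47, 63 and 69 footprints in unstimulated libraries, which is 0.422, 0.432 and 0.453% of those libraries. In the stimulated libraries the sums were 127 and 132, or 0.609 and 0.558%. The groups did not overlap, with means of 0.436 ± 0.0157% (SD, n = 3) and 0.584 ± 0.0359% (SD, n = 2). Pooled over libraries the rate was 1.33-fold higher (95% Poisson interval 1.10 to 1.62, counting error only). With TMM scaling the log2 ratio was 0.36, and it stayed between 0.27 and 0.43 over scalings and left-out libraries. It was 0.44 without the 3 members with the most footprints. No p is given for a sum over members.

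The large subunit went from 127 to 191 footprints, a rate ratio of 1.38 (1.10 to 1.75). The small subunit went from 52 to 68 (1.20, 0.826 to 1.76), and its interval spans 1. Beside the members, footprints of 83 cytosolic ribosomal protein genes went from 300 to 512, a ratio of 1.57 (1.36 to 1.82). Those of 86 nuclear-encoded oxidative phosphorylation genes went from 708 to 717 (0.932, 0.839 to 1.04). The 5 mitochondrial ribosome subunits with other names, which are not members, went from 38 to 17 (0.412, 0.218 to 0.747). The ratio of the members is thus not that of the whole mitochondrial ribosome. The interval of the members overlaps that of the cytosolic ribosome, and the difference between the sets was not tested.

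**Figure D5:**
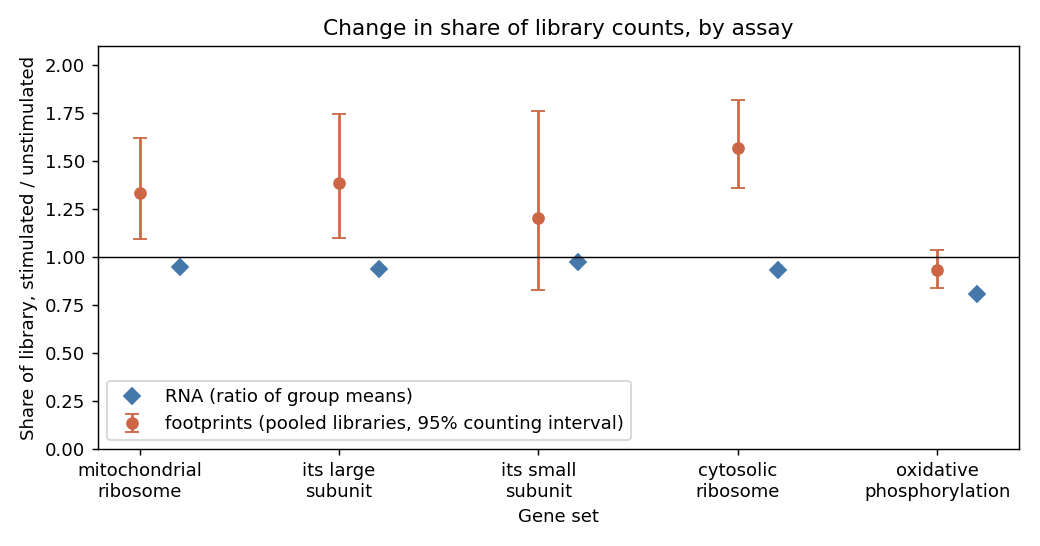
Ratio of the share of library counts, stimulated over unstimulated (y axis), for 5 gene sets (x axis), in footprints (circles, pooled libraries with 95% Poisson intervals) and in RNA (diamonds, ratio of group means). The footprint ratio is 1.33 for the 78 members (labelled mitochondrial ribosome), 1.57 for the cytosolic ribosome and 0.932 for oxidative phosphorylation. Mitochondrial ribosome subunits with other names, at 0.412, are not in the plot. All ratios are of shares of library totals, on which the RNA ratio of the members is 0.950, while their log2 RNA ratio is 0.11 with TMM.

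The share of the members in footprints divided by their share in RNA was 1.66 in unstimulated and 2.34 in stimulated cells. For cytosolic ribosomal proteins this ratio was much lower in both states, 0.185 and 0.314, and for oxidative phosphorylation it was 2.32 and 2.69. All of these are shares of library totals, and the values of the other 2 sets were not recomputed with TMM. The change of the members' ratio was 0.24 on the log2 scale with TMM within each assay, 0.50 with library totals, and 0.56 without library unstimulated RNA 2.

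No single member could be tested in footprints, because none of the 78 passed the filter on low counts (256 genes did). Without that filter edgeR tested 68 members and called none (0.0939% of all genes rose and 0.00939% fell), and none reached an unadjusted p under 0.05. DESeq2 also called none of 68 (0.0751 and 0.0376% of all genes). For efficiency, the ratio of footprints to RNA, edgeR without the filter and DESeq2 called none of 68 members, and 3 had an unadjusted p under 0.05 in each. Over all genes, edgeR called 0.0094% higher and 0.0282% lower, and DESeq2 0.197 and 0.0564%. With more footprints than RNA, relative to all genes of each assay, edgeR without the filter called 7 of 68 members in unstimulated cells (10.2% of all genes, and 1.8% with fewer) and 9 in stimulated cells (9.7 and 1.39%). DESeq2 called 13 (36.8 and 3.26%) and 20 (22.2 and 2.43%). None was called with fewer footprints. At least 1 footprint was seen for 68 members, 55 of them in unstimulated and 61 in stimulated cells. As a rate per library, 44 had more after stimulation and 24 fewer. The 10 members with none (among them Mrps36, Mrps10 and Mrps5) allow up to 3 footprints, or 35.1 CPM over all libraries.

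The 10 members with the most footprints were Mrpl20, Mrpl52, Mrpl13, Mrpl54, Mrps30, Mrps14, Mrpl33, Mrpl34, Mrpl58 and Mrps12, which held 35.4% of all member footprints. Footprint counts grow with coding length, so this order is not one of levels. Mrpl20, the counterpart of a bacterial protein needed early in large subunit assembly, had 0, 13 and 7 footprints in unstimulated and 5 and 11 in stimulated libraries. Replicates of a group thus differed more than the groups did. Mrpl52 had 3, 1 and 2 and then 3 and 8 footprints, and Mrpl54 had 1, 2 and 2 and then 4 and 6. Both were seen in all 5 libraries, as were Mrps12, Mrpl43 and Mrpl39. Of the 11 footprints of Mrpl34, 10 came from the single library stimulated 2.

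Unstimulated libraries held 40944 footprints in all and stimulated ones 44489. The 4 members whose RNA rose had 2, 0 and 0 footprints together in unstimulated and 9 and 6 in stimulated libraries. Mrpl38 accounts for 9 of these 17 (2, 0 and 0, then 3 and 4). Mrps6 had 0, 0 and 0 and then 3 and 0, Mrps2 had 0, 0 and 0 and then 2 and 1, and Mrpl50 had 0, 0 and 0 and then 1 and 1. The 6 members with the most negative RNA change had 4, 4 and 1 footprints and then 21 and 10. Mrpl33 had 0, 2 and 0 and then 5 and 4, and Mrpl58 had 2, 1 and 0 and then 2 and 6. Mrpl34 had 0, 0 and 1 and then 10 and 0, and Mrps25 had 0, 0 and 0 and then 2 and 0. Mrpl28 had 2, 0 and 0 and then 2 and 0, and Mrpl49 had 0, 1 and 0 and then 0 and 0. The pooled footprints were thus more numerous after stimulation in both groups of genes. These pools are small and rest on a few members, so they do not show how footprints relate to the RNA change.

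Other genes that serve the mitochondrial ribosome were tested in the same way, where 3.58% of all genes passed upward and 4.68% downward. Of 20 mitochondrial translation factors none rose and 1 fell (3 were higher at an unadjusted p under 0.05, and DESeq2 called 0 higher and 3 lower). It was Rmnd1, a protein needed for mitochondrial translation, with 22.4, 22.8 and 22.3 CPM before and 12.4, 12.9 and 17.1 CPM after stimulation (-0.67 ± 0.15, adjusted p = 0.0180, edgeR). Of 27 assembly and rRNA modification factors 1 rose and none fell (0 were lower at an unadjusted p under 0.05, and DESeq2 called none). It was Mrm3, a methyltransferase of the large rRNA, with 17.3, 16.8 and 16.3 CPM and then 23.1, 27.1 and 37.1 CPM (0.79 ± 0.17, adjusted p = 0.0164, edgeR).

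Of 12 genes of mitochondrial transcription and genome upkeep, 1 rose and 2 fell (4 were higher and 2 lower at an unadjusted p under 0.05, and DESeq2 called 0 higher and 3 lower). Top1mt, the mitochondrial topoisomerase, rose by 1.08 ± 0.19 (adjusted p = 0.00547, edgeR). Polg2, the accessory subunit of the mitochondrial DNA polymerase, went from 28.3, 26.9 and 30.8 to 11.4, 12.7 and 18.5 CPM (-1.01 ± 0.18, adjusted p = 0.00572, edgeR). Primpol, a primase and polymerase, fell by 0.64 (adjusted p = 0.0265, edgeR). The calls of Rmnd1 and Primpol were lost when unstimulated RNA replicate 1 or 3 or stimulated RNA replicate 1 or 2 was left out (adjusted p from 0.0720 to 0.126 and from 0.134 to 0.227, edgeR). That of Mrm3 was lost without unstimulated RNA replicate 3 or stimulated RNA replicate 1 or 2 (0.0889 to 0.192), with RLE scaling (0.104), with no filter (0.0639) and with DESeq2 (0.178). That of Top1mt was lost with DESeq2 (0.0501), while Polg2 was called in all 15 settings.

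None of the other 5 mitochondrial ribosome subunits, of 82 cytosolic ribosomal protein genes or of 81 oxidative phosphorylation genes tested passed in either direction in edgeR's test. At an unadjusted p under 0.05, 1, 1 and 0 genes of these lists were higher and 0, 0 and 1 lower, and DESeq2 called 0 higher in each and 0, 0 and 3 lower. The median log2 changes of these 3 lists were 0.19, 0.10 and -0.07 with TMM and -0.05, -0.13 and -0.30 with RLE scaling. Among genes of at least 10 CPM these medians were 0.28, 0.18 and 0.01. There 3 of 5, 55 of 80 and 10 of 75 genes passed upward and 0, 0 and 12 downward (36.9 and 36.4% of all genes). In that setting 7 of 17 translation factors, 12 of 23 assembly factors and 6 of 11 transcription and genome genes passed upward. Of these 3 lists, 4, 3 and 4 genes passed downward.

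Promoters were read for 69 of the 78 members from RefSeq on GRCm38.p6, as the 250 bases before and 50 after the transcript start. They were searched on both strands for GCGCANGCG (NRF1, a regulator of nuclear genes for mitochondria), CCGGAAG (ETS family, which includes GABP), AANATGGCG (YY1) and CACGTG (the E-box bound by Myc). NRF1 letters were present in 23.2% of members against 7.03% of all 27025 genes with such a promoter, ETS letters in 37.7% against 9.93%, YY1 letters in 15.9% against 2.76% and the E-box in 7.25% against 8.09%. The 27025 genes were not limited to those expressed in these cells or matched for base composition. The differences are therefore not shown to be particular to the members. Matches of different motifs overlapped in 0 member promoters. Of the 4 members that rose, Mrps6, Mrpl50 and Mrps2 held none of these letters, and Mrpl38 is not in the table. Of all 69 members read, 24 held none. Mrpl28, Mrps25 and Mrpl49, which are among the most negative, also held none, so this was not particular to the members that rose. The 100 bases before the start are shown for Mrps6 and Mrpl50, which rose, beside Mrpl17, the next in order, and Mrpl34, one of the most negative, which both hold a motif, given in capitals. They lie at chr16:92058236-92058335 (plus strand), chr4:49521084-49521183 (minus), chr7:105811088-105811187 (minus) and chr8:71464826-71464925 (plus), each 5′ to 3′ along its gene.
Mrps6: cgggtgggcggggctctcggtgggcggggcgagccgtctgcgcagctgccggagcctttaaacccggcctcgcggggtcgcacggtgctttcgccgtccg
Mrpl50: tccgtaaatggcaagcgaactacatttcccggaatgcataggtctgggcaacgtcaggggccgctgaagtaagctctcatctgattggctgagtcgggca
Mrpl17: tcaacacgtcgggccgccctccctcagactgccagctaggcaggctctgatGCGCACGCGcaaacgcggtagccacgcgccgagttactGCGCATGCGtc
Mrpl34: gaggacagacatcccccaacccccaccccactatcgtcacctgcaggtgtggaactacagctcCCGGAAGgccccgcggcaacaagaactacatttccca
The capitals mark 2 NRF1 matches in Mrpl17 and an ETS match in Mrpl34. Mrps2 is not shown because its window lies inside the annotated span of the gene. A match is a description of the letters and not a binding site.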

How the data were processed

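The authors deposited whole-number read counts of coding sequences, not normalized, for 6 RNA and 5 footprint libraries. The submitters' processing notes name STAR 2.5 and the builds mm10 and GRCm38; the counting tool, annotation, strand handling and read filters are not given in the sources used here. Symbols were matched for 21838 of 21957 identifiers. Members, lists and alternatives were chosen with earlier results of these data known.

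Counts were tested with edgeR 4.0.16 in R 4.3.3 (TMM, filterByExpr with minimum count 10 and minimum total 15, prior count 2, no replicate block), with p-values adjusted by Benjamini-Hochberg over all genes tested. The SE of a log2 change from edgeR was derived as its absolute value divided by the square root of the F statistic. The test script was tested on simulated data. DESeq2 1.42.0, RLE, library totals, totals without 4 genes, no filter, genes of at least 10 CPM, a replicate block, an adjusted p of 0.01, each library left out and, added after seeing the data, scaling to the member sum were alternatives. Sums over members have no test.

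Named genes are members that passed, the 6 most positive and 6 most negative RNA changes among members of at least 10 CPM, the 10 members with most footprints and 8 set by name; from other lists, up to 2 that passed, with Primpol added by count. Levels per coding length were not computed, since no coding lengths were used here. Intervals and the limit of 3 counts for a count of 0 cover counting error only. At a footprint depth of 11136 to 23641, 3 counts are 269 to 127 CPM.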

Additional observations from a re-analysis of the deposited data

How the results depend on the processing

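The members called higher in RNA (4) were 1 with DESeq2, RLE scaling, totals without 4 genes, no filter and an adjusted p of 0.01, 7 with library totals, 43 among genes of at least 10 CPM and 20 scaled to the member sum, the alternative added after seeing the data. The members called lower (0) were 2, 14, 7 and 22 with DESeq2, library totals, genes of at least 10 CPM and the member sum. With 1 library left out, 1 to 8 were higher and 0 to 36 lower; 36 came without unstimulated RNA replicate 2 (32.1% of all genes) and 17 without stimulated RNA replicate 3 (21.9%). The median member change was -0.11 with RLE scaling and -0.19 to 0.09 with 1 library left out. The summed RNA change was -0.20 to 0.09 with 1 library left out. The change in summed efficiency was 0.50 with library totals and 0.16 to 0.56 with 1 library left out. Members with more footprints than RNA (none tested with the filter) were 13 with DESeq2 and 7 without filter in unstimulated cells and 20 and 9 in stimulated cells, and 0 to 1 with 1 library left out.

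Mrpl44 was -0.24, -0.14, -0.10, -0.05, -0.07 and -0.03 with DESeq2, RLE, library totals, without 4 genes, no filter and the member sum, and -0.24 to 0.07 with 1 library left out. Mrps18a was -0.23, -0.13, -0.10, -0.04, -0.06 and -0.02 in the same order, and -0.19 to 0.06 with 1 library left out. Mrps36 was -0.15, -0.05 and -0.0029 with DESeq2, RLE and library totals, and -0.10 to 0.21 with 1 library left out. Mrpl10 was 0.00086 among genes of at least 10 CPM. None of these changes passed with TMM, and the cause of the shifts was not tested. With the replicate number as a block, 5 members were higher (the 4 and Mrpl17, adjusted p = 0.0350, edgeR) and 0 lower, and all calls went from 677 and 883 to 1236 and 1168. The numbers were not taken to pair the samples, since the labels do not say that equal numbers mark a shared mouse or culture. The correlation of deviations was -0.396, 0.301 and 0.623 for equal numbers 1, 2 and 3. It was also positive for unstimulated 2 with stimulated 1 (0.567) and unstimulated 1 with stimulated 3 (0.515). All other pairs of unlike numbers were negative (-0.695 to -0.219). Depth limits the footprints of single members: none could be tested with the filter.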

Other observations

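Small footprint counts of the members were uneven. Over the 5 footprint libraries, 67 values of members were 2 and 54 were 1, while over all genes 6257 values were 2 and 9675 were 1. The excess of 2 over 1 was seen in unstimulated 3 (18 against 7) and stimulated 2 (23 against 8), and not in unstimulated 1 (12 against 17) or unstimulated 2 (3 against 11), and stimulated 3 had 11 of each. The Poisson intervals treat each footprint as independent, and whether they are was not tested.

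The other 5 mitochondrial ribosome subunits moved against the members in footprints. They had 38 footprints in unstimulated and 17 in stimulated libraries, a rate ratio of 0.412 (95% Poisson interval 0.218 to 0.747), while their share of RNA was 0.0321 ± 0.00342% (SD, n = 3) and 0.0324 ± 0.00347%. The share was 0.108, 0.0755 and 0.0984% of footprints before stimulation and 0.0528 and 0.0254% after it, without overlap. The set was singled out after its values were seen.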
